A study of Rattus norvegicus with 20 samples.

Results

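The collagen and stellate cell matrix genes followed here were 10 genes: Col1a1, Col1a2, Col3a1, Col4a1, Col5a2, Dcn, Lum, Sparc, Timp1 and Des. They were chosen by gene symbol, and 15 of the 31042 probe sets of the array carry these symbols. A probe set is a group of short probes read together as 1 value. The study fed 20 female Sprague Dawley rats for 24 days on 4 diets, 5 rats each, and hybridized the liver RNA of each rat to a 1-colour Affymetrix array. In the BNF diet, 5,6-benzoflavone, which binds the aryl hydrocarbon receptor, was added at 1650 mg per kg. The D3T diet held 3H-1,2-dithiole-3-thione at 600 mg per kg. The OLT diet held its methyl- and pyrazinyl-substituted form, oltipraz, at 500 mg per kg. The control rats ate the same Harlan Teklad mash without additive. No genetic change is named for any group, and the labels give no age. RNA came from whole liver, so every value averages hepatocytes and all other liver cells.

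Matrix in the liver is made largely outside the hepatocyte. Hepatic stellate cells, which lie between hepatocytes and the sinusoidal endothelium and store retinoids, are the main source of fibrillar collagen, and they become contractile, matrix-producing myofibroblasts when activated. Portal fibroblasts, endothelial cells and smooth muscle cells of vessel walls add to it. Type I and type III collagen form the fibrils of scar and of portal tracts, type V collagen helps to start those fibrils, and type IV collagen forms the network of basement membranes. Small leucine-rich proteoglycans such as decorin and lumican bind fibrils and regulate their spacing, SPARC is a collagen-binding glycoprotein, TIMP1 inhibits matrix metalloproteinases, and desmin is an intermediate filament of muscle that marks rat stellate cells.

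Of the 10 genes, 8 had at least 1 probe set above a log2 value of 4 in at least 5 arrays, the level used here to separate signal from the background that the normalization leaves. They were represented by 13 probe sets. The stellate cell filament gene Des stayed between 2.76 and 3.17 in all 20 arrays. Lum stayed between 2.64 and 3.08 in 19 arrays and read 5.38 in the array labelled BNF 5. Neither was tested. The collagens, Sparc and Timp1 were thus measured above the filter level, while the proteoglycan Lum and the stellate cell filament Des were not, outside that 1 array of Lum. Dcn passed through all 5 BNF arrays and 1 control array (control 3), so its presence among the tested genes already depends on the BNF arrays. Counts of called genes in the main fit are also given without it. Counts of probe sets and of alternative fits can include it. Values below are log2 signals of 1 probe set, and they were compared across arrays and never between genes.

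**Figure D1:**
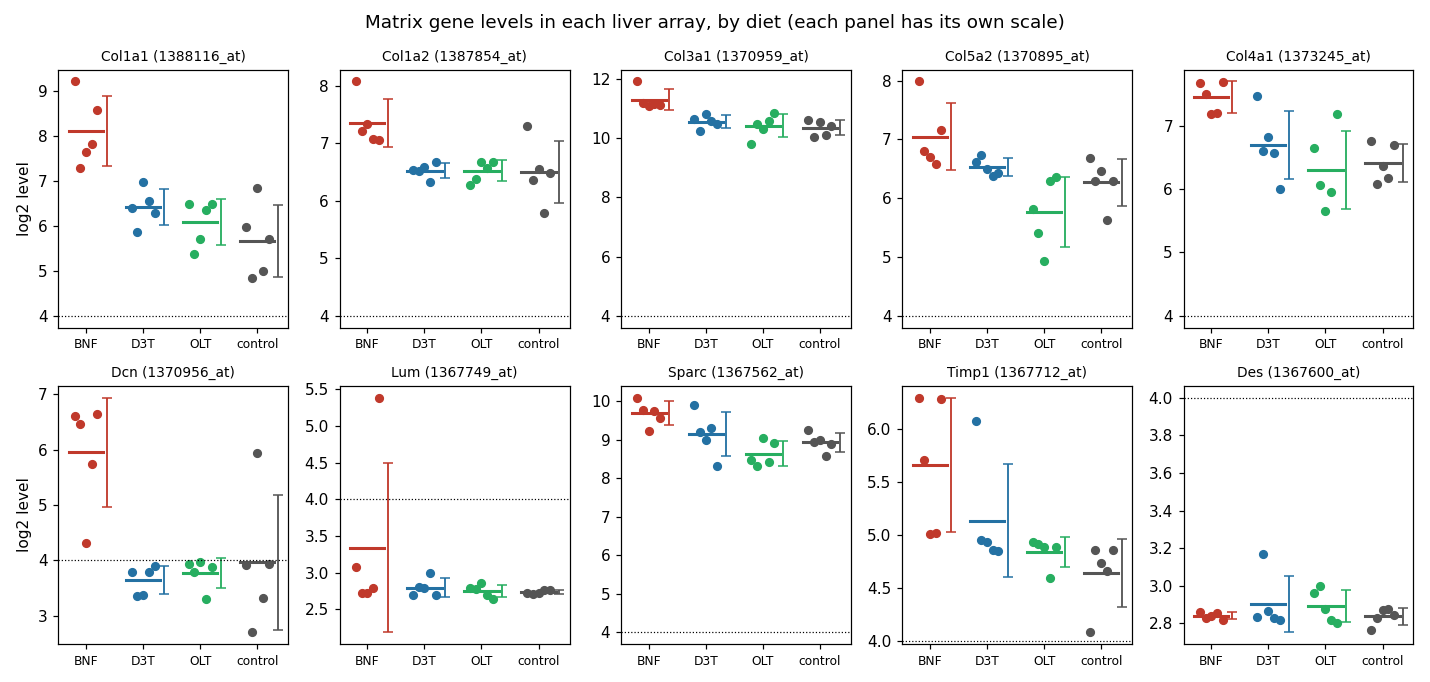
Log2 signal (vertical axis) of each of the 10 genes, by its brightest probe set, in every array of the BNF, D3T, OLT and control diets. Points are arrays, bars are group means with SD (n = 5), and the dotted line marks the filter level of 4. The BNF arrays of Col1a1 lie between 7.29 and 9.22 and do not overlap the control arrays, while Des lies below the line in all 20 arrays.

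The sequence before a gene's start holds part of what sets its transcription. RefSeq promoter windows (build GRCr8, 250 bases before to 50 after the annotated start) were matched by symbol for 7 of the 10 genes: Col1a2, Col4a1, Col5a2, Lum, Sparc, Timp1 and Des. The windows of Col4a1 and its neighbour Col4a2 are shown because the 2 genes start beside each other and code for the 2 chains of the same type IV molecule. Their annotated starts lie 77 bases apart on opposite strands, at chr16:84885347-84885646 (plus strand, Col4a1) and chr16:84885471-84885770 (minus strand, Col4a2), and the windows share 176 bases. Col1a2, at chr4:33518307-33518606 (plus strand), is shown as a fibrillar collagen promoter. Each is written 5′ to 3′ in the direction of its gene, and capitals mark the CCAAT box (letters CCAAT, or ATTGG where the box lies on the opposite strand).
Col4a1: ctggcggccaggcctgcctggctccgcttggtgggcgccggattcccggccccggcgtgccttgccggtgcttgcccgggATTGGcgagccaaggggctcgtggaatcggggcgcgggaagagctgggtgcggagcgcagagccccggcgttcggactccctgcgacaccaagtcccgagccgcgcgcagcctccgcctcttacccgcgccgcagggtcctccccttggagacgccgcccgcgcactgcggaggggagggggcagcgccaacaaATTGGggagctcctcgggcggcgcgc
Col4a2: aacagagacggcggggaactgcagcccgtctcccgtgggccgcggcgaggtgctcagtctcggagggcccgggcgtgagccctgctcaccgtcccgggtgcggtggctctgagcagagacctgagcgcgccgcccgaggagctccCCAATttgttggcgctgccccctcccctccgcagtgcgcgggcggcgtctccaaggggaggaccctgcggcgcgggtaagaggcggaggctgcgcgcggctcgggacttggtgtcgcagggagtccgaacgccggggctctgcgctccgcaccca
Col1a2: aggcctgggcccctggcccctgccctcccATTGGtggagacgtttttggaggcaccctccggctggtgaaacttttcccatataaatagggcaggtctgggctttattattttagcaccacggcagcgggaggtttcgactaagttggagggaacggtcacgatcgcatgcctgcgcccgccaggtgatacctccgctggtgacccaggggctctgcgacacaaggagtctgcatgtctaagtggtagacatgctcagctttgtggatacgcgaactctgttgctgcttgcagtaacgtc
CCAAT on either strand was found in 3 of the 7 windows (Col1a2, Lum and Col4a1) and in 37.5% of all 33469 windows of the table. The CCAAT box of Col4a2 lies in the shared stretch and is also the second box of Col4a1, read from the other strand. GGGCGG, the core of a GC box, was found in 3 windows (Des, Col4a1 and Timp1) and in 33.1% of all. GCGTG, the core bound by the aryl hydrocarbon receptor, was found in 3 windows (Lum, Col4a1 and Timp1), against 29.7% of all. TGACNNNGC, the core of the antioxidant response element, was found in the Timp1 window and in 12.1% of all. TATAA was found in the Col1a2 window and in 26.2% of all. Some of these matches can overlap each other, and a match in these letters describes the window and is not a bound site.

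Before the comparisons, 3 features of the arrays bear on these genes. Correlations between arrays over the 12947 probe sets that passed the filter lay between 0.930 and 0.992. The arrays labelled D3T 5 and OLT 1 resembled the other dithiolethione diet more than their own in an earlier analysis of these data, so results that rest on them are also given without them. The array labelled BNF 1 was the highest of the BNF arrays for 6 of the 8 tested genes, and the array labelled BNF 3 was the lowest for 5. Control 1 was the highest control array for 5 genes.

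BNF versus control asks how these genes stood under an aryl hydrocarbon receptor ligand. Messenger RNA of both type I collagen chains, of type III and type IV collagen, of decorin and of TIMP1 was higher in BNF livers. In all, 6 of the 10 genes rose (8 tested) and none fell by limma at an adjusted p under 0.05. Apart from Dcn, which entered the test through its BNF arrays, 5 rose of 7 tested. Over all 7837 genes tested, 1.77% were called higher. By probe set, 8 of the 15 (13 tested) were higher, against 1.46% of all probe sets, and these 8 include the probe set of Dcn. The differences of the 8 tested genes were all positive, between 0.75 and 2.45, while the median over all genes was -0.06. In 4 of the 8 (Col1a1, Col3a1, Col4a1 and Timp1) every BNF array read above every control array, as did 2.91% of all genes. Fewer cells of a type and less RNA per cell cannot be told apart in RNA of whole liver, and the same holds for more of either.

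Col1a1 encodes the major chain of type I collagen, and its log2 signals in BNF replicates 1 to 5 were 9.22, 7.29, 7.65, 7.84 and 8.59. In control replicates 1 to 5 they were 5.97, 4.85, 6.84, 4.99 and 5.71. The lowest BNF array lay above the highest control array. The mean was 8.12 ± 0.78 in BNF livers and 5.67 ± 0.80 in control livers (SD, n = 5 each), a difference of 2.45 (SE 0.38, limma adjusted p = 0.00101), or 5.45-fold. A second Col1a1 probe set, 1370864_at, read 6.44, 5.63, 5.98, 6.23 and 6.68 in BNF arrays, against 4.99, 4.61, 5.02, 5.03 and 4.33 in control arrays. Its groups did not overlap either, and the difference was 1.39 (SE 0.20, adjusted p = 0.000441). Within diets the deviations of the 2 probe sets correlated with r = 0.54 over 20 arrays, so they tracked each other in part. Both probe sets of Col1a1 stayed called in each of the 20 fits that left out 1 array.

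Col3a1, the single chain of type III collagen, read 11.92, 11.21, 11.08, 11.16 and 11.11 in BNF replicates 1 to 5 and 10.60, 10.05, 10.57, 10.12 and 10.42 in control replicates 1 to 5. The groups did not overlap, and BNF 1 stood apart from the other 4 BNF arrays, which lay between 11.08 and 11.21. The difference was 0.95 (SE 0.19, adjusted p = 0.00773), or 1.93-fold. It was called without each array in turn, with a lowest difference of 0.79 in those fits.

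Col1a2 encodes the partner chain of type I collagen. Its brighter probe set, 1387854_at, read 8.07, 7.22, 7.33, 7.07 and 7.05 in BNF arrays and 7.30, 6.36, 6.56, 5.78 and 6.49 in control arrays. Control 1 lay above 3 of the 5 BNF arrays, so the groups overlapped. The difference was 0.85 (SE 0.22, adjusted p = 0.0378), and the call was lost without control 2, 3, 4 or 5 or BNF 1, 2 or 3 (highest adjusted p = 0.113, without BNF 1). The other probe set, 1370155_at, read 7.81, 7.45, 6.99, 6.36 and 7.06 in BNF arrays and 7.72, 4.96, 5.64, 5.01 and 5.32 in control arrays. Here control 1 was again far above the other controls, the difference was 1.40, and it was not called (adjusted p = 0.0595); without control 1 it was 1.90 with an adjusted p of 0.000363.

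Col4a1 encodes the first chain of type IV collagen. Probe set 1373245_at read 7.67, 7.51, 7.19, 7.21 and 7.70 in BNF arrays and 6.75, 6.07, 6.36, 6.18 and 6.69 in control arrays. The second probe set, 1372439_at, read 7.88, 7.32, 7.01, 7.02 and 7.13 in BNF arrays and 6.30, 6.08, 6.31, 5.81 and 6.17 in control arrays. Both separated the diets without overlap. The differences were 1.04 (SE 0.27, adjusted p = 0.0376) and 1.14 (SE 0.25, adjusted p = 0.0140). The call of the first was lost without control 2, 3, 4 or 5 or BNF 1, 2, 4 or 5 (highest adjusted p = 0.104), and that of the second without BNF 1 (adjusted p = 0.0520).

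Col5a2, a chain of the fibril-starting type V collagen, was not called between these diets. It read 7.99, 6.79, 6.70, 6.58 and 7.16 in BNF arrays and 6.68, 6.29, 6.46, 5.62 and 6.30 in control arrays. BNF 1 was far above the rest, and BNF 4 lay below control 1. The difference was 0.77 (95% interval 0.19 to 1.36, adjusted p = 0.147). Its second probe set, 1373463_at, averaged 4.44 ± 0.70 in BNF arrays and 4.27 ± 0.20 in control arrays, close to the filter level.

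Dcn encodes the fibril-binding proteoglycan decorin. It read 6.60, 6.46, 4.31, 5.74 and 6.64 in BNF arrays, against 3.92, 2.70, 5.94, 3.32 and 3.93 in control arrays. In 4 of the 5 controls Dcn lay below the filter level of 4, and the fifth, control 3, lay above 2 BNF arrays. The fitted difference was 1.99 (SE 0.47, adjusted p = 0.0219). Its size rests on values in the background range, and with control arrays below 4 set to 4 it was at least 1.56 on the log2 scale. The call was lost without control 2 or 4 or BNF 1, 2 or 5 (highest adjusted p = 0.0738). The SE pools the spread of all 4 diets, and every D3T and OLT array of Dcn lay below 4. The SD was 0.26 in D3T and 0.27 in OLT arrays, against 0.99 in BNF and 1.22 in control arrays. With only the BNF and control arrays fitted, the SE was 0.62 and Dcn was not called (limma adjusted p = 0.1095).

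Timp1, the metalloproteinase inhibitor, read 6.28, 5.70, 5.00, 5.02 and 6.28 in BNF arrays and 4.08, 4.86, 4.74, 4.66 and 4.86 in control arrays. The groups did not overlap, but BNF 3 and BNF 4 lay just above the highest control arrays. The difference was 1.02 (SE 0.27, adjusted p = 0.0410). The call was lost without any 1 of the 5 controls, BNF 1, 2 or 5, D3T 3 or OLT 2 (highest adjusted p = 0.123, without BNF 1).

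Sparc, the collagen-binding glycoprotein, was not called with either probe set. Probe set 1367562_at read 10.09, 9.78, 9.23, 9.75 and 9.57 in BNF arrays and 9.26, 8.95, 8.99, 8.57 and 8.87 in control arrays. A single pair of arrays, BNF 3 and control 1, kept the groups from separating. The difference was 0.75 (95% interval 0.27 to 1.24, adjusted p = 0.0859). Probe set 1367563_at averaged 8.45 ± 0.21 in BNF arrays and 7.69 ± 0.56 in control arrays (SD, n = 5 each), a difference of 0.75 (adjusted p = 0.0775). When the arrays labelled D3T 5 and OLT 1 were left out, which act through the shared variance, the first probe set was called and 7 of the 10 genes were higher, Dcn among them. The number of genes called was 2 (Col1a1 and Col3a1) without control 2, control 4, BNF 1 or BNF 2, and 3 without control 3, control 5 or BNF 5.

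**Figure D2:**
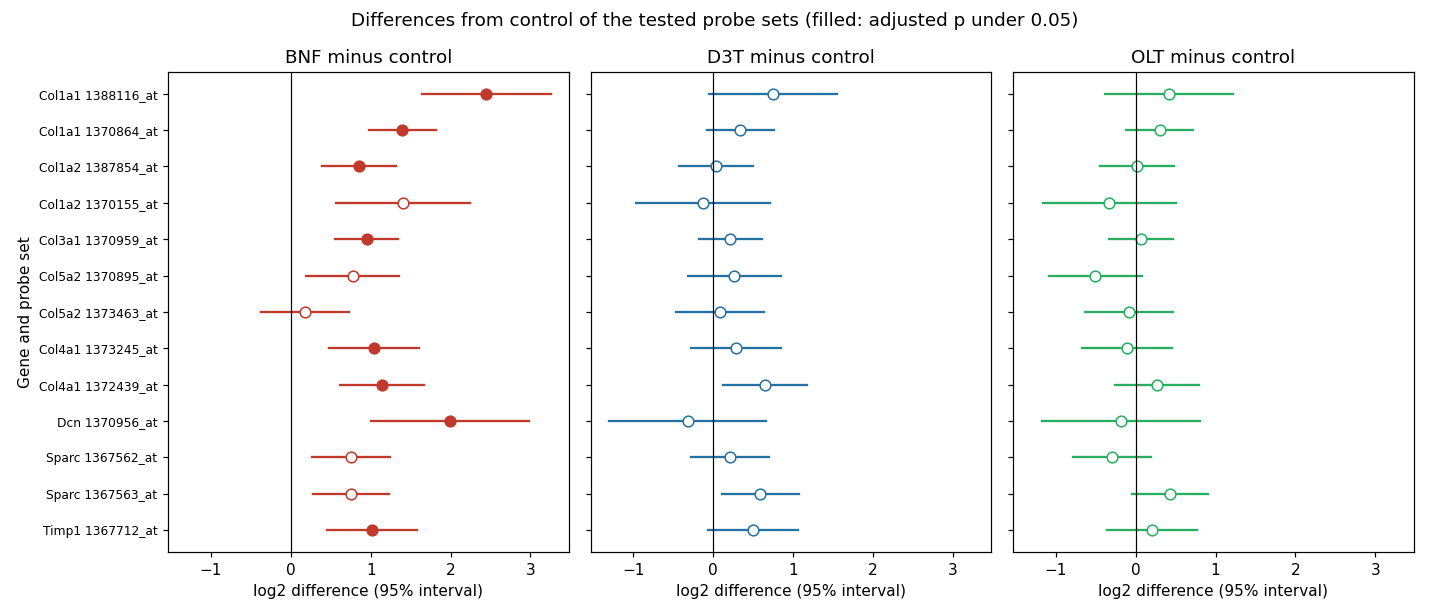
Log2 difference (horizontal axis) of each tested probe set of the 8 genes between BNF, D3T and OLT livers and control livers, with 95% intervals from limma. Filled points passed an adjusted p of 0.05. All 13 differences lie above 0 under BNF, 8 of them filled (Dcn among these), and none is filled under D3T or OLT.

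Of 60 other tested genes in 7 lists of matrix and TGF-beta or PDGF signalling genes, 7 (11.7%) were called under BNF, 6 higher and 1 lower, against 4.17% of all genes. The 7 include Plat, whose control mean lay just below the filter level, and the lists were chosen with earlier results of these data known. Of the other network collagens, 1 of 8 tested rose, Col4a2, the second type IV chain, by 0.57 (SE 0.16, adjusted p = 0.0487). It averaged 7.42 ± 0.33 in BNF livers and 6.85 ± 0.11 in control livers, and was called in 4 of the 20 fits that left out 1 array, those without BNF 3, BNF 5, D3T 4 or D3T 5. None of the 3 other fibrillar collagens was called or had an unadjusted p under 0.05. Of 11 collagen processing enzymes, limma called 0, with 1 at an unadjusted p under 0.05. Among other proteoglycans and glycoproteins of the matrix, 1 of 10 rose, Mgp, the matrix Gla protein that inhibits calcification, by 1.06 (adjusted p = 0.0456, called in 6 of those 20 fits). Nid1, the basement membrane linker nidogen, was 1 of 2 basement membrane glycoproteins that rose, by 0.89 (adjusted p = 0.0443, called in 5 of the 20).

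Among matrix proteases and inhibitors, 2 of 9 others rose under BNF, Adamts1, a secreted protease of proteoglycans, by 0.99 and Plat, tissue plasminogen activator, by 0.35. Adamts1 was lost without control 1, 2 or 4 or BNF 1, 2 or 5 (highest adjusted p = 0.0884) and Plat without BNF 4 (adjusted p = 0.0508). Plat averaged 4.33 ± 0.07 in BNF livers and 3.98 ± 0.01 in control livers, the control mean just below the filter level. Its place among the called genes thus rests on values near that level. Of 17 genes of TGF-beta and PDGF signalling, pathways that act on stellate cells, 1 rose and 1 fell. Tgif1, a repressor of SMAD-driven transcription, rose by 0.85 and was lost without control 1, 2 or 3 or BNF 1 or 5 (highest adjusted p = 0.110). Tgfbi, a TGF-beta-induced matrix protein, fell by 0.60 (SE 0.10, adjusted p = 0.00249), in the opposite direction to the collagens, and was called in all 20 fits.

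Markers of stellate cells themselves were mostly not called under BNF. Of 12 stellate cell markers on the array that are not among the 10 genes, 6 passed the filter, and Hand2, Ngfr, Gfap, Hgf, Rgs5 and Nes stayed at or below 4 in all 20 arrays. All 6 tested had positive differences with a median of 0.23, and 1 rose under BNF, Vim, the intermediate filament vimentin of mesenchymal and many other cells. It averaged 8.71 ± 0.25 in BNF livers and 7.54 ± 0.50 in control livers, a difference of 1.16 (SE 0.22, adjusted p = 0.00471). Lrat, which esterifies stored retinol, averaged 6.10 ± 0.45 in BNF livers and 5.80 ± 0.52 in control livers (adjusted p = 0.794), and Reln, secreted by stellate cells, 9.15 ± 0.24 in BNF livers and 8.75 ± 0.31 in control livers (adjusted p = 0.307). Acta2, the smooth muscle actin of activated stellate cells and vessel walls, averaged 8.21 ± 0.29 in BNF livers and 8.02 ± 0.35 in control livers (95% interval of the difference -0.20 to 0.59). Of 5 tested markers of activated stellate cells and myofibroblasts outside the 10, 4 had positive differences with a list median of 0.20, and 1 rose, Mgp, by the 1.06 given above. Tagln, Lox, Loxl1, Spp1, Cnn1, Thy1, Fbln2, Gli1 and Postn of that list stayed at or below 4 in all arrays. The retinol and reelin genes and Acta2 under BNF are given as values chosen after they were seen.

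Markers of other cell types moved with the diet too. Of 12 tested endothelial markers, 1 rose under BNF (Plvap, of the fenestral diaphragm, by 0.75) and the median of the list was 0.73, with 11 of 12 positive. Of 15 tested macrophage and Kupffer cell markers, 2 rose, Tyrobp, a myeloid signalling adaptor, by 0.93 and Laptm5, a lysosomal membrane protein of blood cells, by 0.93, and the median was 0.93. Laptm5 averaged 4.89 ± 0.43 in BNF livers and 3.96 ± 0.39 in control livers, the control mean just below the filter level. It was lost without control 1, 2, 4 or 5, BNF 1, 2, 4 or 5 or OLT 2 (highest adjusted p = 0.116). The log2 of the summed signals of the endothelial list ranged from 11.25 to 12.34 in BNF arrays and from 10.71 to 11.52 in control arrays. That of the macrophage list ranged from 12.88 to 13.95 in BNF arrays and from 12.26 to 13 in control arrays. For 4 smooth muscle markers the sums ranged from 10.42 to 10.57 in BNF arrays and from 10.36 to 10.88 in control arrays, and none was called or had an unadjusted p under 0.05. Of 4 tested cholangiocyte markers, 1 rose, the water channel gene Aqp1, by 1.61 (adjusted p = 0.0449), with a control mean of 3.05 below the filter level. It was called in 5 of the 20 fits that left out 1 array, those without control 1, BNF 3, D3T 1, D3T 2 or OLT 1. All 18 hepatocyte markers on the array passed the filter, and 1 rose, Apoa1, the main apolipoprotein of HDL, by 0.78 (adjusted p = 0.0126). They had a median difference of -0.01 and sums from 18.53 to 18.71 in BNF arrays and from 18.39 to 18.75 in control arrays.

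**Figure D3:**
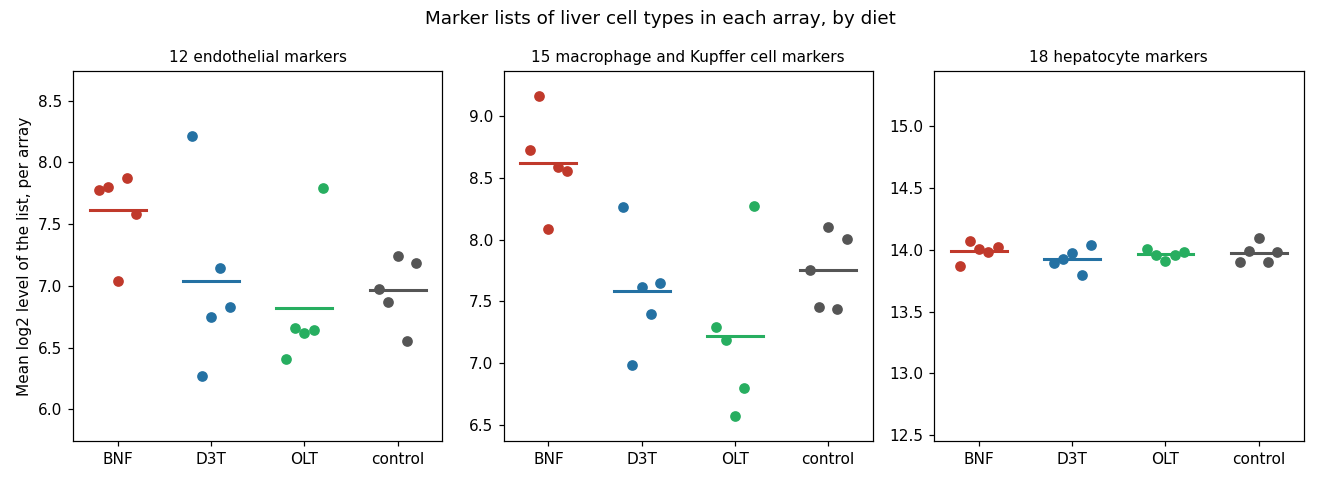
Mean log2 signal (vertical axis) of the tested markers of liver cell types in each array, by diet. Points are arrays and bars are group means. The macrophage list lies between 8.09 and 9.16 in BNF arrays and between 7.44 and 8.10 in control arrays, while the hepatocyte list lies between 13.87 and 14.07 in BNF arrays and between 13.90 and 14.10 in control arrays.

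The fits were repeated with each array's mean log2 level of endothelial or of macrophage markers as a covariate. With the endothelial level, the BNF versus control difference of Col1a1 was 2.20 (adjusted p = 0.0100) and that of Col3a1 was 0.73 (adjusted p = 0.0539). With the macrophage level, Col1a1 differed by 2.03 (adjusted p = 0.0410) and Col3a1 by 0.68 (adjusted p = 0.171). Col1a1 was thus the 1 gene of the 10 called in either fit. Under the macrophage covariate Col4a1 had a difference of 0.42 and Dcn one of 1.27, neither called (adjusted p = 0.448 and 0.300). The macrophage level hardly overlapped between BNF and control arrays. The endothelial level ran from 7.04 to 7.88 in BNF arrays and from 6.56 to 7.24 in control arrays. Only BNF 3 lay below the highest control array for the endothelial level. This diet and either marker level can thus barely be told apart. The part of other cells in the remaining differences was not tested further.

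**Figure D4:**
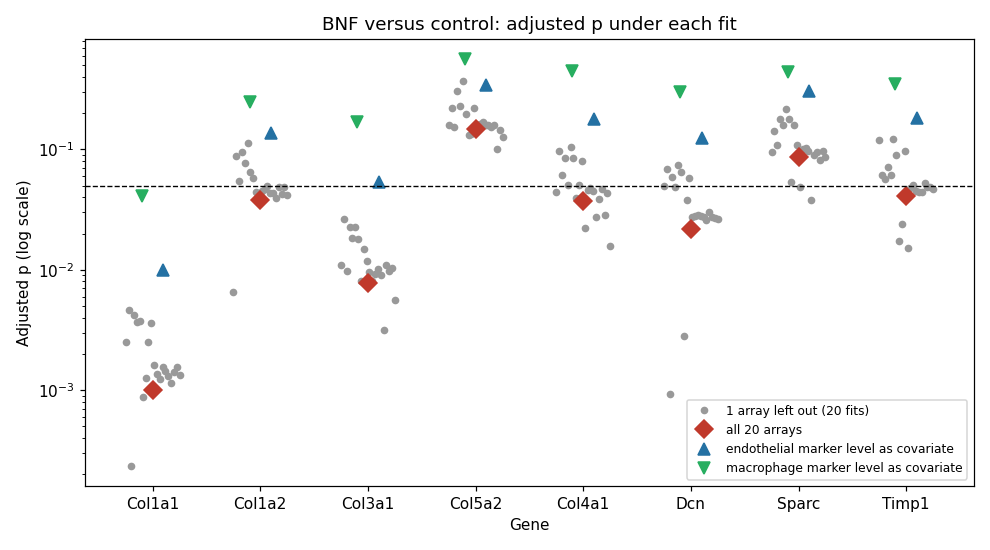
Limma adjusted p of BNF versus control (vertical axis, log scale) for the brightest probe set of each tested gene (horizontal axis). Points are the 20 fits that left out 1 array. Diamonds are the fit on all arrays without a covariate. Triangles are the fits with the endothelial or the macrophage marker level as a covariate. Col1a1 lies under 0.05 in every fit shown. With all arrays it lies at 0.00101 without a covariate, 0.0100 with the endothelial level and 0.0410 with the macrophage level. Every other gene lies above 0.05 in both covariate fits.

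D3T versus control asks the same of the unsubstituted dithiolethione. None of the 10 genes was called in either direction by limma (8 tested, by their brightest probe sets 0 at an unadjusted p under 0.05), while 13.1% of all genes were called. The differences ran from -0.32 for Dcn to 0.75 for Col1a1. Col1a1 read 6.41, 5.87, 6.99, 6.55 and 6.29 in D3T replicates 1 to 5, of which D3T 3 lay above the highest control array, 6.84, and the other 4 inside the control range. The difference of 0.75 had a 95% interval of -0.06 to 1.55 (adjusted p = 0.230). Col3a1 read 10.67, 10.24, 10.83, 10.60 and 10.49 in D3T arrays, and its interval of -0.18 to 0.61 leaves room for a change of up to 0.61 on the log2 scale. Timp1 read 6.08 in D3T 1 and between 4.85 and 4.95 in the other 4 D3T arrays, so its difference of 0.50 (adjusted p = 0.259) leaned on 1 array. Dcn stayed below 4 in all 5 D3T arrays, at 3.36 to 3.90. Of the second probe sets, 1372439_at of Col4a1 differed by 0.64 (adjusted p = 0.108) and 1367563_at of Sparc by 0.59 (adjusted p = 0.104).

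Of the same 60 other matrix and signalling genes, 7 (11.7%) were called under D3T, close to the 13.1% of all genes. Col4a2 rose by 0.57 (SE 0.16, adjusted p = 0.0233), with a mean of 7.41 ± 0.32 in D3T livers and 6.85 ± 0.11 in control livers. It was lost without control 5, D3T 3 or D3T 4 (highest adjusted p = 0.0677). Among 11 collagen processing enzymes, 2 rose and 1 fell. P4hb, protein disulfide isomerase and a subunit of prolyl hydroxylase, rose by 0.52, and Ppib, the cyclophilin that isomerizes prolines of procollagen, by 0.49. Plod1, a lysyl hydroxylase of collagen, fell by 0.78 (SE 0.16, adjusted p = 0.00345). Acta2 fell by 0.88 (SE 0.19, adjusted p = 0.00469) to 7.14 ± 0.32 in D3T livers, against 8.02 ± 0.35 in control livers, while no collagen among the 10 was called. Of the signalling genes 2 of 17 fell: Tgfbi by 0.52, and Smad7, an inhibitor of TGF-beta receptors, by 1.61 (lost without control 1, control 5, D3T 2 or D3T 3, highest adjusted p = 0.0805). The protease Mmp19 fell by 0.89 and was called in 5 of the 20 fits that left out 1 array.

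OLT versus control asks it of the substituted dithiolethione. None of the 10 genes was called by limma (8 tested, 0 at an unadjusted p under 0.05), against 7.5% of all genes. The differences ran from -0.50 for Col5a2 to 0.41 for Col1a1, with 4 positive and 4 negative. Col1a1 read 6.49, 5.37, 5.71, 6.36 and 6.50 in OLT replicates 1 to 5, within the control range. Col5a2 read 5.82, 5.41, 4.94, 6.29 and 6.36 in OLT arrays, of which 3 lay in the control range of 5.62 to 6.68 and 2 below it. The 95% interval of its difference was -1.09 to 0.08 (adjusted p = 0.292). Timp1 read 4.93, 4.91, 4.88, 4.59 and 4.88 in OLT arrays, with a difference of 0.20. Of the 60 other matrix and signalling genes 4 (6.67%) were called, close to the 7.5% of all genes. Among them, 2 of 11 collagen processing enzymes fell under OLT: P4ha1, the catalytic subunit of prolyl hydroxylase, by 1.33 (SE 0.26, adjusted p = 0.00536) and Plod1 by 0.58, and Plod1 was lost without control 1, 2, 3 or 5 or OLT 1, 3 or 4 (highest adjusted p = 0.0866). Tgfbi fell by 0.48 and Skil, a repressor of SMAD proteins, by 1.72. Skil was lost without control 1, 2, 4 or 5 or OLT 1 or 3 (highest adjusted p = 0.0937) and also without the arrays labelled D3T 5 and OLT 1.

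Among markers of other cells, neither dithiolethione diet had a called endothelial marker (12 tested in each, 0 at an unadjusted p under 0.05). The log2 summed endothelial signal ranged from 10.41 to 12.86 in D3T arrays, from 10.59 to 12.20 in OLT arrays and from 10.71 to 11.52 in control arrays. That of the macrophage list ranged from 11.99 to 13.14 in D3T arrays, from 11.39 to 13.07 in OLT arrays and from 12.26 to 13 in control arrays. Of the 15 macrophage markers, 1 fell under OLT, the haemoglobin receptor gene Cd163, by 1.46, and it was lost without control 1, control 5, OLT 1, OLT 2 or OLT 3 (highest adjusted p = 0.0708). The erythroid heme synthesis gene Alas2 rose by 1.93 under D3T and by 1.84 under OLT, and the other of 2 erythrocyte markers, Hbb, by 1.0 and 1.10. The Hbb probe set may also read related globins, and its calls were lost without control 1 or 2, D3T 2 or 5, or OLT 1 or 2 (highest adjusted p = 0.0656 under D3T and 0.0615 under OLT). Among the 18 hepatocyte markers, 2 rose and 3 fell under D3T and 2 fell under OLT. They included Tat, tyrosine aminotransferase, which fell by 1.06, and Fah, the last enzyme of tyrosine breakdown, which rose by 0.51 under D3T. The asialoglycoprotein receptor gene Asgr2 fell by 0.53 under D3T and by 0.67 under OLT, and its partner Asgr1 by 0.55 under OLT. The D3T call of Asgr2 was lost without control 1, 2 or 3 or D3T 2, 3 or 5 (highest adjusted p = 0.0981) and also with D3T 5 and OLT 1 left out together.

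The 2 dithiolethiones, given at different doses, were compared directly as OLT versus D3T. No gene of the 10 was called by limma, and 0% of all genes were called. Of the 12947 probe sets, 1385 had an unadjusted p under 0.05. Of the 8 tested, 7 differences were negative and 2 had an unadjusted p under 0.05. Col5a2 differed by -0.77 (95% interval -1.35 to -0.18, adjusted p = 0.309): it read 5.82, 5.41, 4.94, 6.29 and 6.36 in OLT arrays and 6.61, 6.74, 6.50, 6.37 and 6.43 in D3T arrays, without overlap. Sparc differed by -0.51 (95% interval -1.0 to -0.02, adjusted p = 0.440). The Col5a2 groups were only narrowly apart, with OLT 5 at 6.364 and D3T 4 at 6.373. By the second probe sets the differences were -0.17 for Col5a2 and -0.16 for Sparc, neither with an unadjusted p under 0.05. The intervals of the other 6 genes spanned 0, with a lowest bound of -1.14 (Col1a1) and a highest of 1.12 (Dcn), which does not show that the compounds act alike. With D3T 5 and OLT 1 left out, 0 of the 10 genes were called in this comparison, and likewise 0 in D3T versus control and 0 in OLT versus control.

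Some of these genes were also higher in BNF livers than in livers of the dithiolethione diets. In BNF versus D3T, 4 of the 10 genes were higher under BNF, against 6.78% of all genes: Col1a1 by 1.70, Col1a2 by 0.82, Col3a1 by 0.73 and Dcn. Dcn lay below the filter level in all 5 D3T arrays, so that it was at least 1.95 higher on the log2 scale. Its limma adjusted p of 0.00258 belongs to the fitted difference of 2.31, and 3 genes were called apart from Dcn. Col4a1, Col5a2, Sparc and Timp1 were not called (adjusted p from 0.0672 to 0.243). The Col1a2 call was lost without BNF 1 (adjusted p = 0.0515), and 7 of the 10 were called without D3T 1, the array that stood high for Timp1. In BNF versus OLT, 7 of the 10 were higher, against 6.41% of all genes, all of those tested except Timp1 (0.82, adjusted p = 0.0619). Col1a1 differed by 2.03, Col5a2 by 1.28, Col4a1 by 1.15 and Sparc by 1.05. Dcn, below the filter level in all 5 OLT arrays as well, was at least 1.95 higher. Its limma adjusted p of 0.00621 belongs to the fitted difference of 2.18, and 6 genes were called apart from Dcn. By its brightest probe set, Sparc read 9.90, 9.20, 9.0, 9.30 and 8.30 in D3T arrays and 8.48, 8.31, 9.03, 8.42 and 8.92 in OLT arrays. Its BNF arrays of 9.23 to 10.09 thus cleared every OLT array and not every D3T array. The second probe sets of Sparc and Col5a2 did not repeat the calls against OLT. 1367563_at of Sparc differed by 0.32 (limma adjusted p = 0.393) and 1373463_at of Col5a2 by 0.26 (adjusted p = 0.573). Those of Col1a1, Col1a2 and Col4a1 were called against OLT. The Col1a2 difference of 0.83 from OLT was lost without BNF 1, OLT 1 or OLT 2 (highest adjusted p = 0.0693) and also with D3T 5 and OLT 1 left out together, where 6 of the 10 genes were called against OLT and 4 against D3T. Macrophage markers differed between the same diets: 9 of 15 were higher under BNF than under D3T (median 1.11) and 13 of 15 than under OLT (median 1.48). With the macrophage level as a covariate 0 of the 10 genes were called in either comparison, and with the endothelial level 2 against D3T and 1 against OLT. These comparisons share the BNF arrays with each other and with BNF versus control, and are not separate evidence.

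With the diet means removed, the 8 genes varied together to some degree over the 20 arrays pooled. Deviations of each array from its diet mean were compared over 20 arrays, which share their normalization. Of the 28 pairs of genes, 27 correlated positively, with r between -0.02 and 0.66 and a median of 0.38. The same values for pairs of all tested genes were not computed. The mean standardized deviation of the 8 genes was highest in BNF 1, at 1.56, and BNF 3 stood at -1.02. BNF 3 also had the lowest endothelial and macrophage marker levels among the BNF arrays, 7.04 and 8.09, but BNF 1, at 7.78 and 8.72, was not the highest for either. D3T 1 and OLT 5, the arrays with the highest mean deviation of their diets (0.88 and 0.92), had the highest endothelial and macrophage levels of their diets. Across the 20 arrays this mean deviation correlated with the deviations of stellate cell markers (r = 0.67), endothelial markers (r = 0.63), macrophage markers (r = 0.60), cholangiocyte markers (r = 0.59), lymphocyte markers (r = 0.59) and mesothelial markers (r = 0.54). The values were lower for markers of activated stellate cells and myofibroblasts (r = 0.38) and of smooth muscle (r = 0.27), and r was -0.16 for hepatocyte and -0.07 for erythrocyte markers. The lymphocyte, mesothelial and erythrocyte levels are means of only 2 genes each, and the cholangiocyte level of 4. Of 14 lymphocyte markers on the array, 12 stayed at or below 4 in all 20 arrays, which limits what these r values show. With the 2 arrays farthest from the median left out, r was 0.57 for stellate, 0.63 for endothelial and 0.60 for macrophage markers. These are descriptions of the same 20 arrays, and the part of cell composition in them was not tested.

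**Figure D5:**
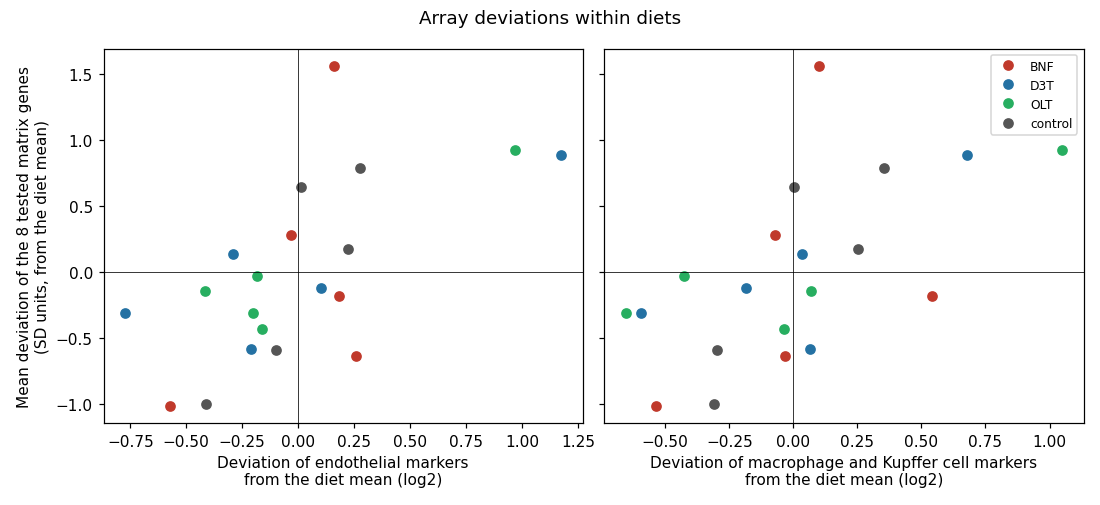
Mean standardized deviation of the 8 tested genes from their diet mean (vertical axis) against the deviation of the endothelial and macrophage marker levels in log2 units (horizontal axes), 1 point per array, coloured by diet. The endothelial and macrophage panels slope upward (r = 0.63 and 0.60 over 20 arrays), with BNF 1 the highest point at 1.56.

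The 5 genes outside the 10 whose deviations were most like this mean were App, the amyloid precursor protein (r = 0.85 over 20 arrays), Anxa2, annexin A2 (r = 0.81), Mgp (r = 0.81), Ddx60, an antiviral helicase (r = 0.78), and Pamr1 (r = 0.76). Without the 2 farthest arrays these were 0.74, 0.82, 0.70, 0.64 and 0.60. Of the 5, App, Anxa2 and Mgp also rose under BNF, by 0.64, 1.11 and 1.06, App not without control 1, 2 or 4 or BNF 1 (highest adjusted p = 0.0788), while Ddx60 differed by -0.05 and Pamr1 by 0.33 without a call.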

How the data were processed

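Liver RNA of 20 rats was measured on 20 biotin-labelled 1-colour Affymetrix arrays, 5 per diet, and groups were taken from the sample titles. The authors deposited log2 values of 31042 probe sets between 0.083 and 16.46, made with GCRMA per the submitters' processing notes. Its version and any scan dates are not given in the sources used here, so no test of scan batches was possible. The values were used as deposited. Gene names came from the platform's annotation table, updated by gene ID with the RefSeq table: 20826 had 1 gene, 436 several and 9780 none.

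Probe sets above 4 on the log2 scale in at least 5 arrays were kept, 12947 for 7837 genes, and the brightest kept probe set (highest mean) stood for its gene. In R 4.3.3, limma 3.58.1 (lmFit, eBayes with an intensity trend) was fitted on the 20 arrays together, 1 mean for each diet, with two-sided tests, Benjamini-Hochberg adjustment over all kept probe sets and a threshold of 0.05, for 6 comparisons. The method was tested on simulated data. Precision is limited by the 5 arrays per diet. Nothing states that rats of one replicate number belong together, so the number was not a block. Same-numbered arrays of different diets had correlations of their deviations from -0.27 to 0.30, with 11 of 30 pairs over 0.1.

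The genes and the 17 marker and pathway lists were chosen with earlier results of these data known. Named genes were all 10 genes, up to 3 called genes per list in each comparison with control, and the 5 genes whose deviations were most alike. Exceptions are stated in the text. Alternatives were centring, quantile normalization, no filter, a filter at log2 above 6, other variance models, array weights, only the 2 groups compared, the replicate block, averaging the probe sets of a gene, each array left out in turn, the arrays labelled D3T 5 and OLT 1 left out, and the endothelial or macrophage marker level as a covariate.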

Additional observations from a re-analysis of the deposited data

Results flagged for a closer look

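Single arrays that stood apart from the other 4 of their diet by Dixon's test were 11 in 60 groups of values, where chance gives about 1 in 20. In BNF 1, Col1a2 read 8.07, Col3a1 read 11.92 and the second Col5a2 probe set, 1373463_at, read 5.68, each the highest of its diet. In OLT 4, Dcn read 3.3, Timp1 read 4.59 and the second Sparc probe set, 1367563_at, read 7.48, each the lowest. Timp1 also read 6.08 in D3T 1, the highest of that diet, and 4.08 in control 1, the lowest. The second Col1a2 probe set, 1370155_at, read 7.72 in control 1, Lum read 5.38 in BNF 5, and Des read 3.17 in D3T 2, still below the filter level.

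BNF differed from the dithiolethione diets in a direct test for several genes, with limma adjusted p under the threshold. Against D3T the log2 differences were 1.70 for Col1a1, 0.82 for Col1a2, 0.73 for Col3a1 and 2.31 for Dcn. Against OLT they were 2.03 for Col1a1, 0.83 for Col1a2, 0.88 for Col3a1, 1.15 for Col4a1, 1.28 for Col5a2, 2.18 for Dcn and 1.05 for Sparc. These are values of the brightest probe sets, and the second probe sets of Col5a2 and Sparc were not called. The Dcn values are fitted differences from groups below the filter level in every array, so they are not measured sizes.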

How the results depend on the processing

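No difference of a kept probe set of these genes that was called changed sign under any alternative. The number of the 10 genes called in BNF versus control was 6 as reported and 3 with no filter. It was 4 with only the 2 groups compared, 8 with array weights, and 1 with the endothelial and 1 with the macrophage level as a covariate. With only the 2 groups compared, Col1a2, Dcn and Timp1 were no longer called (limma adjusted p = 0.127, 0.1095 and 0.0818). Sparc was called in that fit by its brightest probe set (adjusted p = 0.0387). In D3T versus control 1 gene was called with array weights. In BNF versus D3T the endothelial covariate left 2 and the macrophage covariate 0 genes, and in BNF versus OLT 1 and 0. Leaving out 1 array gave 2 to 7 genes in BNF versus control, 3 to 7 in BNF versus D3T, 6 to 8 in BNF versus OLT, and 0 in the other comparisons. With the replicate number as a block, 6 genes were called in BNF versus control, 5 in BNF versus D3T and 7 in BNF versus OLT, and 2 of 20 arrays were closest to an array of their own number.

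Of all probe sets, 450 were called in BNF versus control, and 1480 with array weights, 214 with the endothelial and 128 with the macrophage covariate (263 to 508 without 1 array). For D3T versus control the count was 1502, or 974 with no filter and 2885 with array weights (969 to 1673 without 1 array). For OLT versus control it was 826, or 457 with no filter, 2054 with array weights and 382 with only the 2 groups (523 to 1310 without 1 array). OLT versus D3T gave 0, or 112 with array weights and 549 without the arrays labelled D3T 5 and OLT 1 (0 to 236 without 1 array). BNF versus D3T gave 1935, or 3337 with array weights and 990 with the macrophage covariate (1344 to 2180), and BNF versus OLT gave 1246, or 2767, 154 with the macrophage and 531 with the endothelial covariate (777 to 1675). The causes of these shifts were not tested. The fit with no filter adjusts over more tests, and the fit of 2 groups uses fewer arrays. Dcn, Lum, Des and the second Col5a2 probe set lie near or below the filter level, which limits what their differences show.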
